A study of Mus musculus with 21 samples.

Results

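Regulatory T cells (Tregs) of a non-draining lymph node (NDLN) were set against conventional T cells (Tconvs) of the same kind of node, over all genes and in 3 libraries of each, out of 21 libraries in the series. The mice carried Foxp3-GFP, a fluorescent reporter of the Treg lineage gene, were 8 weeks old, and were taken 7 days after myocardial infarction (MI); every group of the series shares this genotype, age and time, and no uninjured mice were analysed here. Cells were enriched with magnetic beads and then sorted by flow cytometry, so the level of Foxp3 follows from the gate. The 7 groups of the series are Tregs of heart, spleen, NDLN and mediastinal lymph node and Tconvs of heart, spleen and NDLN. The labels say neither which node was taken nor whether replicates were separate or pooled animals, so p-values measure the spread between these libraries, which may be partly technical.

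Tregs restrain immune responses through inhibitory receptors, cytokines and the capture of interleukin-2 (IL-2), which they need but hardly make. The transcription factor Foxp3 fixes their identity, and they carry receptors of the tumour necrosis factor (TNF) family through which the cells are costimulated. In a resting node, Tregs with an effector phenotype lie beside naive-like cells that recirculate through blood and lymph.

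The 6 NDLN libraries held 14515387 to 28048570 reads counted to genes. Tconv libraries had at least 1 read for 8852 to 10325 of the genes tested, against 10298 to 11606 in Treg libraries, and mitochondrial ribosomal RNA took 7.35% to 12.3% of Tconv reads against 5.56% to 5.97% of Treg reads. Across genes, Pearson's r between log-scale levels of replicates was 0.808 to 0.844 in Tregs and 0.718 to 0.769 in Tconvs; genes are not independent replicates. The part that gene detection and ribosomal RNA play in the differences below was not tested. Defining T cell genes were present: Cd3e, a chain of the T cell receptor complex, was at 185, 141 and 126 CPM in Tregs and at 129, 125 and 50.2 CPM in Tconvs, and Cd4, the helper coreceptor, at 22.1, 45.6 and 24.5 and at 83.5, 12.9 and 59.2 CPM. Levels of single genes are CPM, read counts brought to a common library size with TMM factors, which correct for differences in library composition. Summed levels of lists are CPM without these factors. Values are given in the order of replicates 1, 2 and 3.

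Of 14996 genes tested, 45 (0.300%) passed edgeR's quasi-likelihood test at a Benjamini-Hochberg adjusted p below 0.05, 42 (0.280%) higher in Tregs and 3 (0.0200%) lower. The higher genes included Foxp3 and the lineage factor Ikzf2, 4 TNF receptors, 2 components of IL-2 signalling, the kinetochore subunits Spc24 and Spc25, the decoy receptor Il1r2, the chemokine receptor Ccr8 and the MHC class II gene H2-Aa. The lower genes included Tnfsf8 and Emb. Among all genes tested, the libraries of the groups did not overlap in 1198 with Tregs higher (7.99%) and 624 with Tregs lower (4.16%), and 1737 (11.6%) had an unadjusted p below 0.05. DESeq2 called 8.81% of the genes it tested higher and 3.25% lower, and limma-voom 1.38% higher and 0.233% lower. The call depends on the libraries of other groups, which share the estimate of spread. With only the 6 NDLN libraries edgeR called 0 genes of 9874, while 768 (7.78%) had an unadjusted p below 0.05. All 45 are among the 768, but they were chosen from a contrast of these same 6 libraries, so this is no separate support. With the 12 NDLN and spleen libraries edgeR called 8, of which 5 are among the 45 (Foxp3, Ikzf2, Tnfrsf18, H2-Aa and Cep112). Without the 5 libraries of heart and mediastinal node that stand apart by low mitochondrial ribosomal RNA it called 18, of which 13 are among the 45. limma-voom called 31 of the 45. The common dispersion of the main fit, a measure of the spread between replicates, was 2.193. With so wide a spread, a gene that was not called is not shown to be unchanged.

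**Figure D1:**
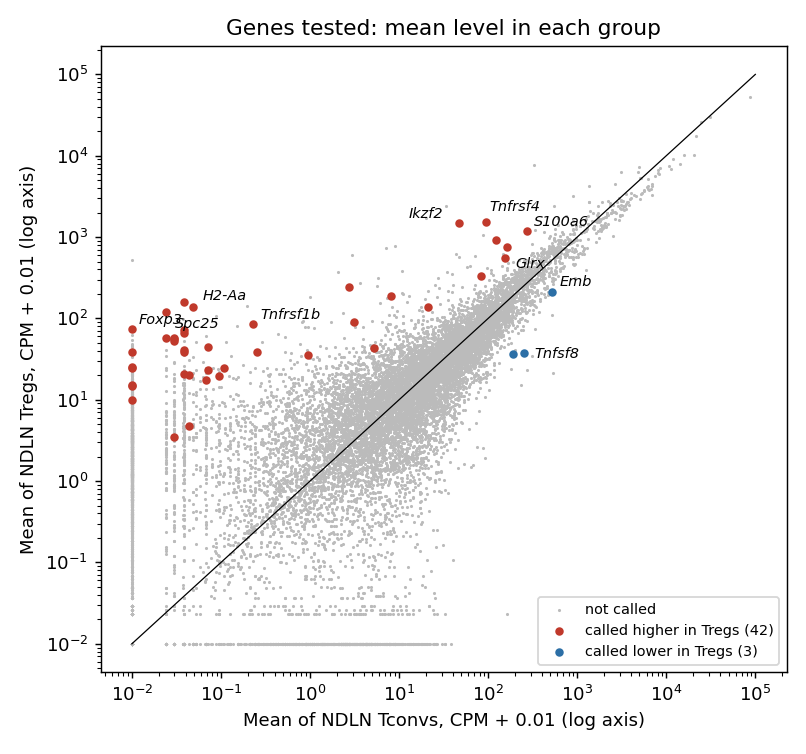
Mean TMM-scaled CPM of each gene tested in the 3 NDLN Tconv libraries (horizontal, log axis, 0.01 added) and the 3 NDLN Treg libraries (vertical, log axis, 0.01 added). Genes called higher in Tregs (42, red) lie above the diagonal, many of them at the left edge with 0 to 3 reads over the Tconv libraries, and the 3 called lower (blue) lie below it.

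Many of the called genes were almost without reads in Tconvs. Of the 42 higher genes, 26 had 0 to 3 reads over the 3 Tconv libraries together, and 7 had 0. For the genes at 0, folds below are lower bounds, set against a floor of 3 reads over the group. For those with 1 to 3 reads the ratio of pooled reads is given with its 95% interval. Both the bound and the interval cover counting error only, not the spread between libraries. The view was then widened to genes at or above 5 CPM in every library of 1 group and at or below 0.5 CPM in every library of the other. Of 14996 genes tested, 105 were present in Tregs by this rule and 11 in Tconvs. Tconv libraries had reads for 8852 to 10325 of the genes tested, against 10298 to 11606 in Treg libraries. The part of this in the 2 counts was not tested. Of the 105, 22 were called, and of the 11, none was called by edgeR, beside 0.280% higher and 0.0200% lower of all genes tested. The 105 included Foxp3 and Itgae but also Cd79b and Ms4a1, markers of B cells. The 11 included Il4, which encodes interleukin-4 and had 0 reads in each Treg library, and Tgfbr3, a coreceptor for TGF-beta, also at 0 in each Treg library.

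Foxp3 had 0 reads in each Tconv library and stood at 39.5, 104 and 75.7 CPM in Tregs, at least 1253-fold higher (adjusted p 7.0e-06). The groups did not overlap; since the cells were sorted on a Foxp3 reporter, this checks the labels and is no finding. Exons of Foxp3 overlap those of Ccdc22, Flicr, Gm36995 and Ppp1r3f, and the strand setting of the counting is not given in the sources used here. Ikzf2, which encodes Helios, a transcription factor of Tregs, stood at 991, 1452 and 2032 CPM in Tregs and at 66.7, 39.5 and 35.2 CPM in Tconvs. Every Treg library was above every Tconv library, with a log2 fold change of 4.98 ± 0.53 (standard error, SE; adjusted p 5.9e-05). Lrrc32, which encodes GARP, the surface anchor of latent TGF-beta, was at 16.9, 25.8 and 2.12 CPM in Tregs and at 0 reads in each Tconv library, at least 236-fold higher (adjusted p 0.02). Treg replicate 3 was far below the other two for Lrrc32 but still above all Tconvs. Swap70, a regulator of the actin cytoskeleton, was at 61.7, 27.5 and 27.5 CPM in Tregs and at 0 in each Tconv library, at least 681-fold higher (adjusted p 0.041). The calls of Foxp3 and Ikzf2 held without each of the 6 NDLN libraries, and that of Ikzf2 was lost with limma-voom (adjusted p 0.06). That of Lrrc32 was lost without Tconv replicate 1 or 2 (highest adjusted p 0.059) and that of Swap70 without any one of the 6 (highest 0.13). Each fit with 1 NDLN library left out also repeated the filter on low counts, which then kept 16620 to 16719 genes. The part of these added genes in the lost calls, here and below, was not tested.

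These genes belong to a Treg identity list of 23 genes, all tested, of which 9 were called higher and none lower. All 23 had a fitted log2 fold change above 0, against 7644 of all 14996 genes. In 19 the groups did not overlap with Tregs higher, beside 7.99% of all genes tested. This list and those below were drawn up with earlier results of these data known, and this one holds Foxp3, the sorted gene. Such counts therefore describe a list and are no test of it. Of all genes tested, edgeR called 0.280% higher and 0.0200% lower, and 11.6% had an unadjusted p below 0.05. DESeq2 called 8.81% higher and 3.25% lower. These shares are the background for the counts of each list. The median log2 fold change was 4.98 in the fit, or 5.01 from pooled reads with genes at 0 set to their bound, beside 0.04 and 0.20 over all genes tested. Il2ra, the high-affinity IL-2 receptor chain, was at 195, 388 and 350 CPM in Tregs and at 0, 0 and 17.3 CPM in Tconvs. The groups were apart, but 1 Tconv library differed from the other two and the adjusted p was 0.41. Ctla4, the inhibitory receptor that competes with CD28, was at 564, 366 and 394 CPM in Tregs and at 164, 221 and 40 CPM in Tconvs (adjusted p 0.26). Itgae, the integrin chain CD103, was at 84.1, 142 and 95.2 CPM in Tregs and at 0.0586, 0 and 0.173 CPM in Tconvs (adjusted p 0.061), and Klrg1, a receptor of terminally differentiated lymphocytes, at 10.9, 114 and 58.4 CPM against 0, 0 and 0.173 CPM (adjusted p 0.058). For both, every Treg library was above every Tconv library. The groups overlapped for Nrp1, a coreceptor often used to mark Tregs of thymic origin, at 52.4, 54.7 and 46.8 CPM in Tregs and 22, 80.7 and 48.1 CPM in Tconvs.

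Beyond Foxp3 and Ikzf2, none of the other 24 members of a list of 26 transcription factors was called. Ikzf3 (Aiolos) was at 68.3, 156 and 147 CPM in Tregs and at 2.23, 24.3 and 27.3 CPM in Tconvs (adjusted p 0.14). Ikzf4 (Eos), a partner of Foxp3, was at 1.43, 17.1 and 1.88 CPM in Tregs and at 0 in each Tconv library (adjusted p 0.18). Both were apart between groups. Prdm1 (Blimp-1), a factor of effector Tregs and of plasma cells, was at 4.19, 63.6 and 35.5 CPM in Tregs and at 0, 0 and 2.33 CPM in Tconvs (adjusted p 0.25).

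**Figure D2:**
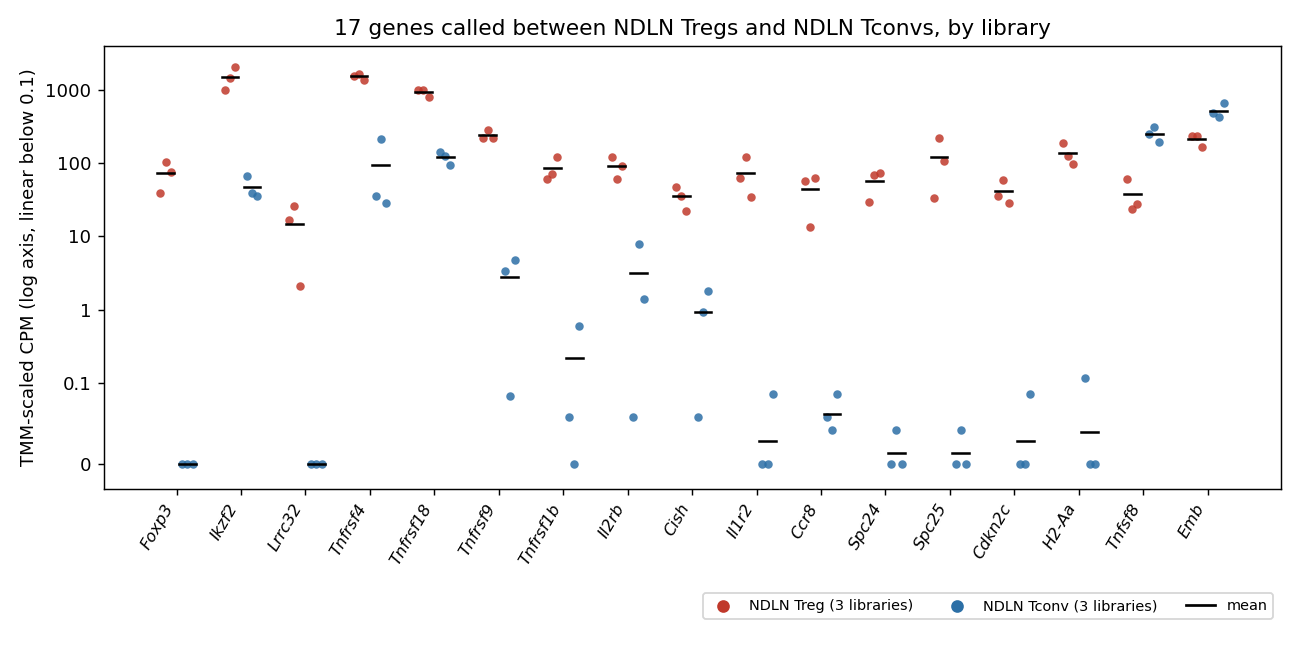
TMM-scaled CPM (log axis, linear below 0.1) of 17 genes called between NDLN Tregs (red) and NDLN Tconvs (blue); each point is 1 library of 3, and the black line is the mean. The 15 genes at the left are higher in every Treg library than in any Tconv library, and Tnfsf8 and Emb at the right are lower in every Treg library.

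Receptors of the TNF family pass costimulatory or death signals from ligands on other cells. Of 15 listed, 13 were tested and 4 were called higher in Tregs, with none lower, beside 0.280% and 0.0200% of all genes tested. Tnfrsf4 (OX40), a costimulatory receptor, was at 1565, 1674 and 1384 CPM in Tregs and at 36.1, 216 and 28.3 CPM in Tconvs. The lowest Treg library was well above Tconv replicate 2, the highest of its group, and the log2 fold change was 4.04 ± 0.68 (SE; adjusted p 0.0098). Tnfrsf18 (GITR), another costimulatory receptor, was at 1006, 995 and 794 CPM in Tregs and at 143, 125 and 94.9 CPM in Tconvs, a log2 fold change of 2.95 ± 0.50 (SE; adjusted p 0.0098). Its replicates were close within each group. Tnfrsf9 (4-1BB), a receptor of activated T cells, was at 224, 287 and 220 CPM in Tregs and at 3.34, 0.0835 and 4.84 CPM in Tconvs, a ratio of pooled reads of 110 (adjusted p 0.0071). Tnfrsf1b (TNFR2), the receptor through which TNF acts on Tregs, was at 60.6, 71.6 and 122 CPM in Tregs and at 0.0586, 0 and 0.604 CPM in Tconvs, a ratio of 579 (adjusted p 0.0012). The groups were apart for all 4 genes, and the calls held without each of the 6 NDLN libraries, except that Tnfrsf9 was lost without Tconv replicate 1 (adjusted p 0.052). With limma-voom the calls of Tnfrsf4, Tnfrsf9 and Tnfrsf18 were lost (adjusted p 0.35, 0.39 and 0.19). With the 12 NDLN and spleen libraries those of Tnfrsf4, Tnfrsf9 and Tnfrsf1b were lost (adjusted p 0.1, 0.11 and 0.1).

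The other TNF receptors gave no call. Cd27, which binds CD70, was at 263, 164 and 194 CPM in Tregs and at 166, 45.7 and 48.7 CPM in Tconvs (adjusted p 0.42), and the groups overlapped by a narrow margin. Fas, a death receptor, was at 46.4, 58.0 and 65.1 CPM in Tregs and at 106, 114 and 169 CPM in Tconvs (adjusted p 0.43), with every Treg library lower. Tnfrsf25 (DR3) overlapped, at 50.4, 2.73 and 36.5 CPM and at 57.0, 72.7 and 29.8 CPM. Over the 13 tested genes the median log2 fold change was 2.95 (2.89 from pooled reads with genes at 0 set to their bound).

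All 4 called TNF receptors lie on chromosome 4, as do 7 of the 13 tested; the others there, Tnfrsf8, Tnfrsf14 and Tnfrsf25, were not called. On GRCm38, Tnfrsf4 (chr4:156013843-156016612) and Tnfrsf18 (chr4:156026164-156028895) lie on the plus strand, 9551 bases apart; Tnfrsf1b is at chr4:145213463-145246870 and Tnfrsf9 at chr4:150914562-150946102. Sdf4, which encodes a calcium-binding protein of the Golgi, ends 232 bases before Tnfrsf4 starts, on the same strand (chr4:155992872-156013610). It was also called, at 712, 939 and 584 CPM in Tregs and at 228, 102 and 159 CPM in Tconvs, a log2 fold change of 2.19 ± 0.41 (SE; adjusted p 0.021). The groups did not overlap; the call was lost without Treg replicate 2 or Tconv replicate 2 (highest adjusted p 0.084). These 3 genes were the only called genes within 50 kb of each other. Gm16008 overlaps exons of Tnfrsf18 on the other strand. Gm16008 itself was at 0, 4.70 and 0.639 CPM in Tregs and at 0, 0 and 0.518 CPM in Tconvs and was not called.

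**Figure D3:**
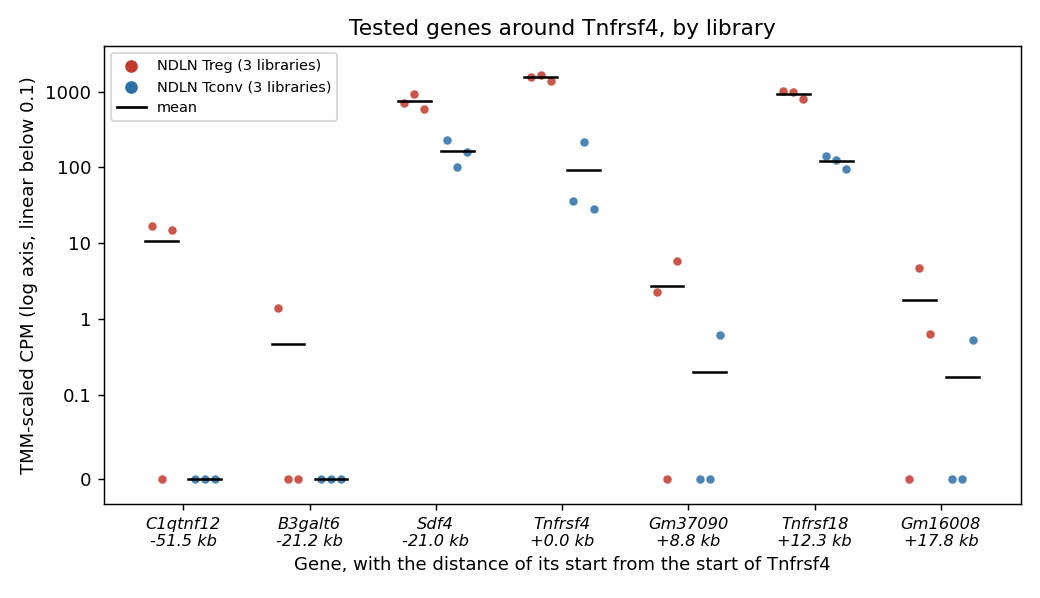
TMM-scaled CPM (log axis, linear below 0.1) of the tested genes around Tnfrsf4, ordered by position; the label gives the distance of each gene's start from that of Tnfrsf4 in kb. Red points are the 3 NDLN Treg libraries, blue points the 3 NDLN Tconv libraries and black lines the means; Sdf4, Tnfrsf4 and Tnfrsf18 are separated between groups, and the other tested genes shown are at or below 16.7 CPM.

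The TNF ligands gave 1 call, in the other direction. Tnfsf8 (CD30 ligand) was at 61.5, 23.6 and 27.8 CPM in Tregs and at 248, 315 and 193 CPM in Tconvs, lower in every Treg library, with a log2 fold change of -2.74 ± 0.54 (SE; adjusted p 0.03). It was the only one of 13 tested ligands to be called; the call was lost without Treg replicate 2 or 3 or Tconv replicate 1 or 2 (highest adjusted p 0.15), and with limma-voom (0.054). Cd40lg (CD40 ligand), the signal that helper T cells give to B cells, was at 24.7, 37.0 and 40.8 CPM in Tregs and at 196, 365 and 359 CPM in Tconvs, with an adjusted p of 0.061. Its groups were far apart. Tnfsf11 (RANKL), a ligand that acts on dendritic cells and on bone-resorbing cells, was at 0, 10.2 and 11.5 CPM in Tregs and at 0 in each Tconv library (adjusted p 0.091).

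In the IL-2 and common gamma chain list, 2 of 16 genes were called, both higher, beside 0.280% of all genes tested. Il2rb, the beta chain shared by the receptors for IL-2 and IL-15, was at 120, 61.2 and 92.6 CPM in Tregs and at 0.0586, 7.98 and 1.38 CPM in Tconvs (log2 fold change 4.85 ± 0.99, SE; adjusted p 0.036). Cish, an SH2 protein that STAT5 induces and that restrains cytokine signalling, was at 47.9, 35.2 and 22.4 CPM in Tregs and at 0.0586, 0.919 and 1.81 CPM in Tconvs (5.25 ± 0.90, SE; adjusted p 0.011). In both genes every Treg library was above every Tconv library. The call of Cish held without each NDLN library but was lost with limma-voom (adjusted p 0.087) and with the 12 NDLN and spleen libraries (0.18). That of Il2rb was lost without any one of the Treg libraries or Tconv replicate 3 (highest adjusted p 0.1), with limma-voom (0.12) and with the 12 libraries (0.2). Il7r, the interleukin-7 receptor of naive and memory T cells, was at 224, 645 and 480 CPM in Tregs and at 829, 760 and 1170 CPM in Tconvs (adjusted p 0.35). Socs3, a feedback inhibitor of cytokine signalling, was at 3.95, 6.96 and 9.55 CPM in Tregs and at 53.8, 62.1 and 7.08 CPM in Tconvs (adjusted p 0.38). The median over the 16 genes was 0.95 in the fit and 0.84 from pooled reads.

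Il1r2, the decoy receptor that binds interleukin-1 without signalling, was at 62.6, 121 and 34.2 CPM in Tregs and had 1 read over the Tconv libraries. The ratio of pooled reads was 3532, with an interval of 634 to 139534 (adjusted p 0.02). It was the only one of 8 receptors of the IL-1 family to be called, and the call was lost without Tconv replicate 1 or 2 (highest adjusted p 0.11). Il1rl1 (ST2), the receptor for interleukin-33, was at 2.05, 12.4 and 20.7 CPM in Tregs and at 0 in each Tconv library (adjusted p 0.11). Il18r1 was at 2.52, 4.35 and 0.320 CPM in Tregs and at 68.7, 12 and 23.1 CPM in Tconvs (adjusted p 0.29). In each of these the groups did not overlap, and ST2 and Il18r1 lay on opposite sides.

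Of the inhibitory receptors and suppressive effectors, 17 were tested and 0 were called by edgeR; 8 had an unadjusted p below 0.05, and DESeq2 called 5 higher and 1 lower. Lgals1 (galectin-1), a lectin that binds glycans on T cells, was at 2018, 2620 and 2551 CPM in Tregs and at 170, 1105 and 377 CPM in Tconvs (adjusted p 0.11). Gzmb (granzyme B) was at 265, 265 and 80.5 CPM in Tregs and at 31.2, 0.0418 and 1.12 CPM in Tconvs (adjusted p 0.42). Tigit, an inhibitory receptor, was at 549, 411 and 299 CPM and at 96.8, 147 and 44.6 CPM (adjusted p 0.42). These 3 genes did not overlap between groups. Il10, the gene of the suppressive cytokine interleukin-10, overlapped through Tconv replicate 2, at 179, 27.3 and 60.7 CPM in Tregs and at 3.63, 29.2 and 0.0863 CPM in Tconvs. Icos, a costimulatory receptor, was at 961, 1546 and 1207 CPM in Tregs and at 322, 553 and 126 CPM in Tconvs (adjusted p 0.42).

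Of 12 tested T cell cytokine genes 8 had a log2 fold change below 0, against 7352 of all 14996 genes tested. Of the 12, edgeR called 0, 6 had an unadjusted p below 0.05, and DESeq2 called 1 higher and 5 lower. Il4 was at 42.6, 48.8 and 24.5 CPM in Tconvs and at 0 in each Treg library (adjusted p 0.15). Il21, the cytokine of follicular helper cells, was at 7.39, 80.3 and 2.50 CPM in Tconvs and at 0 in each Treg library (adjusted p 0.33). Il22 was at 68.2, 418 and 0 CPM in Tconvs, while Tregs held 1 read in all (adjusted p 0.42). Il2 was at 0.0586, 12.1 and 11.6 CPM in Tconvs and at 0.143, 0.0580 and 0.0799 CPM in Tregs (adjusted p 0.39). Only Il4 was at a similar level in the 3 Tconv libraries; Il21 and Il22 were led by Tconv replicate 2.

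Of 16 genes of naive and recirculating T cells 14 had a log2 fold change below 0, and edgeR called 0; 7 had an unadjusted p below 0.05, and DESeq2 called 6 lower. In 8 of the 16 every Treg library was below every Tconv library, beside 4.16% of all genes tested. The median log2 fold change was -1.19 in the fit and -1.21 from pooled reads. Tcf7 (TCF-1), a transcription factor of naive and stem-like T cells, was at 23.1, 18 and 29.4 CPM in Tregs and at 318, 306 and 188 CPM in Tconvs (adjusted p 0.071). Its relative Lef1 was at 124, 52.5 and 44.1 CPM in Tregs and at 415, 234 and 359 CPM in Tconvs (adjusted p 0.11). Both were apart between groups. Dapl1, a gene of naive T cells, was at 8.96, 20.3 and 34.5 CPM in Tregs and at 306, 424 and 867 CPM in Tconvs (adjusted p 0.41). Ccr7, the chemokine receptor that guides lymphocytes into nodes, overlapped at 216, 54.2 and 84.5 CPM and at 458, 218 and 123 CPM (adjusted p 0.43).

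Among 18 tested chemokine receptors Ccr8 alone was called. Ccr8, which binds CCL1, was at 56.7, 13.3 and 62.7 CPM in Tregs and had 1 read in each Tconv library. The ratio of pooled reads was 828, with an interval of 283 to 4019 (adjusted p 0.021). The call was lost without any one Tconv library (highest adjusted p 0.12). Ccr3, the eotaxin receptor, was at 20.2, 23.7 and 14.9 CPM in Tregs and at 0, 0.167 and 0.173 CPM in Tconvs (adjusted p 0.061). In 7 of the 18 genes the Treg libraries were all higher, and in none all lower, beside 7.99% and 4.16% of all genes tested. The lack of genes that were all lower is near the share over all genes. The median was 2.31 (2.37 from pooled reads, over the 16 genes with a ratio and with genes at 0 set to their bound). Of 20 adhesion genes tested Emb was called. Emb (embigin), a membrane glycoprotein that partners monocarboxylate transporters, was at 233, 236 and 167 CPM in Tregs and at 481, 424 and 669 CPM in Tconvs, apart in all libraries and with the smallest change of the 45 genes (log2 fold change -1.31 ± 0.26, SE; adjusted p 0.036). Its call was lost without any one of the 6 libraries other than Tconv replicate 2 (highest adjusted p 0.17), and with limma-voom (0.2).

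Of 22 genes of T cell receptor signalling, 14 had a log2 fold change below 0, against 7352 of all 14996 genes tested. Themis, an adaptor of the pathway, was at 24.2, 6.67 and 14.9 CPM in Tregs and at 253, 260 and 185 CPM in Tconvs (adjusted p 0.17). Lck, the kinase that starts signalling, was at 242, 239 and 220 CPM and at 455, 543 and 378 CPM (adjusted p 0.42). Both were apart between groups, and the median over the list was -0.17 (-0.09 from pooled reads).

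**Figure D4:**
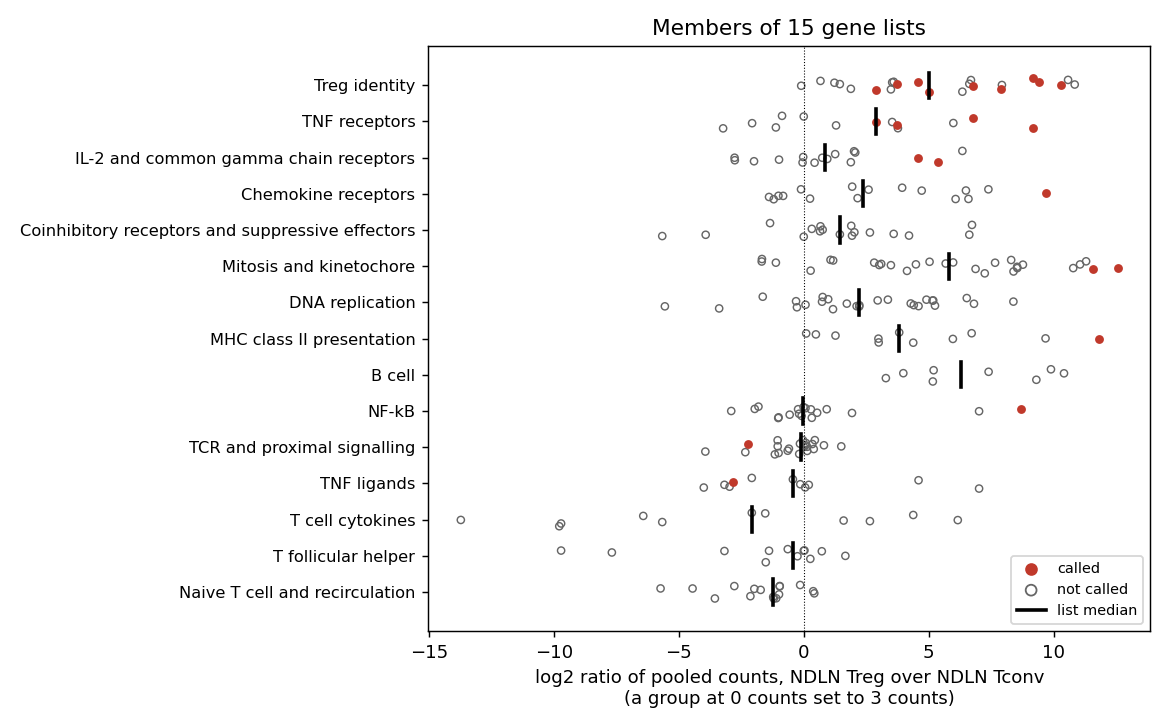
Each point is a tested gene of 1 of 15 lists (rows); the horizontal axis is the log2 ratio of pooled reads, NDLN Tregs over NDLN Tconvs, with a group at 0 reads set to 3 reads. Filled red points were called by edgeR, open points were not, and the black bar is the list median, which lies at 5.01 for Treg identity, 5.83 for mitosis and kinetochore genes and -1.21 for naive T cell genes, beside 0.20 for all genes.

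Of 28 genes of mitosis and the kinetochore, the structure that ties chromosomes to the spindle, 25 had a log2 fold change above 0 and 2 were called, both higher. In 18 of the 28 every Treg library was above every Tconv library, beside 7.99% of all genes tested. The median was 6.08 (5.83 from pooled reads with genes at 0 set to their bound). The summed level of the 28 genes was 771, 2194 and 1904 CPM in Tregs and 38.1, 417 and 68.4 CPM in Tconvs. The summed level of plasma cell markers was likewise lowest in Treg replicate 1, at 191, 4079 and 3628 CPM, and was 197, 40.2 and 25.1 CPM in Tconvs; its part in the mitosis values was not tested. Spc25, a subunit of the NDC80 complex that binds microtubules, was at 33.3, 224 and 106 CPM in Tregs and had 1 read over the Tconv libraries. The ratio of pooled reads was 6008, with an interval of 1078 to 237329 (adjusted p 0.039). Spc24, its partner in the same complex, was at 29.5, 69.4 and 72.9 CPM in Tregs and also had 1 read over the Tconvs, a ratio of 3025 (543 to 119502; adjusted p 0.02). Treg replicate 1 was the lowest of its group for both. The other members of that complex were not called: Ndc80 was at 5.38, 67.3 and 29.6 CPM in Tregs and at 0.0586, 0.0418 and 0.259 CPM in Tconvs (adjusted p 0.061), and Nuf2 at 61.6, 16.7 and 21.7 CPM against 0.0586, 6.56 and 0 CPM (adjusted p 0.66). The call of Spc24 was lost without Tconv replicate 1 (adjusted p 0.066) and that of Spc25 without any one library other than Treg replicate 1 (highest 0.15).

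The proliferation marker Mki67 overlapped between groups, at 25.3, 74.7 and 53.9 CPM in Tregs and at 24.7, 34.7 and 0.0863 CPM in Tconvs (adjusted p 0.85). Cdk1, the kinase that drives entry into mitosis, was at 97.5, 127 and 71.4 CPM in Tregs and had 2 reads in Tconv replicate 2 and none in the other two (adjusted p 0.12). Of 26 DNA replication genes 23 had a log2 fold change above 0. In 13 every Treg library was above every Tconv library, beside 7.99% of all genes tested. Of the 26, edgeR called 0, 7 had an unadjusted p below 0.05, and DESeq2 called 6 higher. Pcna, the sliding clamp of DNA polymerase, was at 475, 418 and 309 CPM in Tregs and at 275, 209 and 242 CPM in Tconvs (adjusted p 0.42). Cdkn2c (p18INK4c), an inhibitor of the kinases CDK4 and CDK6, was at 36.2, 59.7 and 28.3 CPM in Tregs with 1 read over the Tconvs, a ratio of 2076 (95% interval 372 to 82032, adjusted p 0.039). It was the only one of 11 CDK inhibitor genes to be called, and the call was lost without any one of the 6 libraries (highest adjusted p 0.15).

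H2-Aa, the alpha chain of the MHC class II molecule I-A, was at 189, 126 and 96.4 CPM in Tregs and had 2 reads over the Tconvs, both in replicate 1, a ratio of 3551 (95% interval 983 to 29330, adjusted p 0.0051). The call held without each NDLN library. Of 11 class II presentation genes it was the only one called; all 11 had a log2 fold change above 0, with a median of 4.37 (3.81 from pooled reads with genes at 0 set to their bound). H2-Eb1, the beta chain of I-E, was at 79.6, 51.3 and 15.3 CPM in Tregs and at 0 in each Tconv library (adjusted p 0.079), and Cd74, the invariant chain, at 628, 249 and 255 CPM against 0.117, 103 and 0.691 CPM (adjusted p 0.46). Both were apart between groups.

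Markers of B cells, which carry class II constitutively, lay on the same side. All 8 tested markers of 10 listed had a log2 fold change above 0. In 7 of them every Treg library was above every Tconv library, beside 7.99% of all genes tested. Of the 8, edgeR called 0, 7 had an unadjusted p below 0.05, and DESeq2 called 4. Their summed level was 253 to 327 CPM in Tregs (0.0253% to 0.0327% of reads) and 0.153 to 2.14 CPM in Tconvs. Cd79b, a chain of the B cell receptor complex, was at 119, 139 and 169 CPM in Tregs and at 0.0586, 0.418 and 0.0863 CPM in Tconvs, and Ms4a1 (CD20) at 57.4, 44.3 and 51.9 CPM against 0, 0.0418 and 0.0863 CPM. In bulk samples fewer cells of a type and less RNA per cell cannot be told apart, and the part of B cell markers in the class II difference was not tested. In spleen the summed level was 365 CPM on average in Tregs and 16.2 CPM in Tconvs. Of 7 plasma cell markers 5 were tested, with a summed level of 191 to 4079 CPM in Tregs and 25.1 to 197 CPM in Tconvs. Jchain among them varied within Tregs, at 71.7, 4179 and 2965 CPM, and was at 63.4, 35 and 2.59 CPM in Tconvs. The values of Jchain are TMM-scaled and the sums are not, so this gene can exceed a sum that holds it.

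The libraries also held reads of other cell types' markers. The summed level of 5 tested dendritic cell markers was 21.8 to 92.5 CPM in Tregs and 17.4 to 83.8 CPM in Tconvs, and that of 5 macrophage and monocyte markers 25.9 to 256 and 1.88 to 174 CPM. For 3 neutrophil markers it was 0.285 to 15.4 and 0 to 29.9 CPM, for 6 erythroid markers 1.43 to 14.2 and 2.34 to 20.9 CPM, and for 5 markers of node stroma and endothelium 27.5 to 73.9 and 11.9 to 79.0 CPM. The ranges overlapped in each of these. Markers of CD8 T and NK cells summed to 259 to 494 CPM in Tregs and 136 to 272 CPM in Tconvs; Cd8a itself was at 0, 0.464 and 17.9 CPM in Tregs and at 0 in each Tconv library (adjusted p 0.43).

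Of 18 NF-kB pathway genes, 8 had a log2 fold change above 0 and 10 below, and 1 was called. That gene, Nfkbie, encodes IkB-epsilon, which holds NF-kB dimers in the cytoplasm, and was at 56.0, 3.08 and 10.3 CPM in Tregs with 1 read in each Tconv library. The ratio of pooled reads was 412, with an interval of 141 to 2001 (adjusted p 0.024). Treg replicate 1 was far above the other two; the call was lost without it or without any one Tconv library (highest adjusted p 0.1). The median over the list was -0.07 (-0.05 from pooled reads). Rnf31, the catalytic subunit of the linear ubiquitin ligase that activates the pathway, was at 16.3, 3.95 and 24.1 CPM in Tregs and at 0 in each Tconv library, at least 281-fold higher (adjusted p 0.046); its call was lost without any one of the 6 libraries (highest adjusted p 0.16), and its exons overlap those of Irf9.

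Because TNF receptors signal through NF-kB and AP-1, the promoters of the called genes were searched for short motifs. RefSeq promoter windows, 250 bases before to 50 after each start on GRCm38.p6, were at hand for 31 of the 42 higher genes; Ino80c, Gm26532, Gm6637, Lrrc32, Il2rb, Sytl2, Gm14005, Eif4e3, Spc24, Pak1ip1 and Ikzf2 were not matched. On either strand, the NF-kB motif was found in 4 of the 31 genes (Tnfrsf9, Cep112, H2-Aa and Nfkbie) and in 5.17% of all 26742 genes in the table. The AP-1 motif TGANTCA was found in 5 (Tnfrsf9, Nfkbie, Gm33104, Sgta and Glrx), against 8.97% of all genes. The forkhead motif TGTTTAC, the core of the sites that Foxp3 can bind, was found in 1 (Swap70) against 4.06%, and the ETS motif CCGGAAGT in 3 (Sgta, Nol10 and Ap5m1) against 4.35%. Tnfrsf9 and Nfkbie were the only genes to hold both the NF-kB and the AP-1 motif. The 250 bases before the start of Nfkbie (chr17:45555450-45555699, plus strand), with the AP-1 match first and the NF-kB match second in capitals, and those before the start of H2-Aa (chr17:34287824-34288073, minus strand), with 2 NF-kB matches on opposite strands that overlap and are in capitals as 1 run, are shown for these matches. The AP-1 and NF-kB matches in Nfkbie do not overlap, and a match of letters does not show that a factor binds.
Nfkbie: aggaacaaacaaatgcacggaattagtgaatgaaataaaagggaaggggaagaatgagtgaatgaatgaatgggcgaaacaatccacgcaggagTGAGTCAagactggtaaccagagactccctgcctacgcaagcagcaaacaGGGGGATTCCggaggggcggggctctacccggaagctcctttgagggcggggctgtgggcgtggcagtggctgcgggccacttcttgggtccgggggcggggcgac
H2-Aa: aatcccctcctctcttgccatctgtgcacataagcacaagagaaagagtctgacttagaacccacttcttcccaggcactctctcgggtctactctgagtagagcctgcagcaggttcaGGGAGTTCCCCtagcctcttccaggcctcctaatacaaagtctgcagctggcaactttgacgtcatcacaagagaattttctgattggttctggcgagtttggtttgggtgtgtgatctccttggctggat

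Several other called genes had few or no reads in Tconvs. Bnip3, a mitophagy receptor of the outer mitochondrial membrane, was at 26.5, 20.7 and 28.5 CPM in Tregs and at 0 in each Tconv library, at least 451-fold higher (adjusted p 0.024). Nol10, a nucleolar protein, was at 32.5, 24.1 and 16.2 CPM in Tregs and at 0 in each Tconv library, at least 417-fold higher (adjusted p 0.021). Both calls were lost without Tconv replicate 1 or 2, with highest adjusted p of 0.083 and 0.063. In spleen the groups overlapped for both genes. Bnip3 was at 1.73, 20.6 and 20.2 CPM in spleen Tregs and at 0.260, 22.9 and 7.54 CPM in spleen Tconvs. Nol10 was at 44.2, 17.1 and 14.9 CPM in spleen Tregs and at 23.5, 6.57 and 0 CPM in spleen Tconvs. Panx1, a channel that releases ATP, was at 17.0, 65.6 and 91.7 CPM in Tregs with 1 read over the Tconvs, a ratio of 3144 (95% interval 564 to 124230, adjusted p 0.0051). Cep112, a centrosomal protein, was at 35.4, 83.1 and 49.8 CPM, also with 1 read over the Tconvs, a ratio of 2846 (510 to 112441; adjusted p 0.0051). Tmem97, the sigma-2 receptor of the endoplasmic reticulum, was at 33.6, 25.5 and 101 CPM with 1 such read, a ratio of 3053 (548 to 120618; adjusted p 0.0057). Eif4e3, a cap-binding translation factor, was at 35.3, 17.8 and 8.43 CPM with 1 such read, a ratio of 1047 (188 to 41377; adjusted p 0.0051). These last 4 calls held without each of the 6 NDLN libraries; with the 12 NDLN and spleen libraries those of Panx1, Tmem97 and Eif4e3 were lost (adjusted p 0.1 for each).

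Rln3, which encodes the peptide hormone relaxin-3, was at 156, 24.5 and 19.7 CPM in Tregs with 1 read over the Tconvs (adjusted p 0.0098), and the call was lost without Tconv replicate 1 (adjusted p 0.052). Treg replicate 1 stood apart within its group. Sytl2, an effector of Rab27 in vesicle transport, was at 51.6, 37.3 and 27.0 CPM with 1 such read (adjusted p 0.03). Ap5m1, a subunit of an adaptor complex of endosomes, was at 9.43, 13.9 and 50.1 CPM in Tregs and at 0.293, 0 and 0 CPM in Tconvs (adjusted p 0.024), and Ino80c, a subunit of the INO80 chromatin remodeller, at 28.8, 30.6 and 55.8 CPM against 0.117, 0 and 0.604 CPM (adjusted p 0.024). Sytl2 lost its call without Treg replicate 2 or Tconv replicate 1 or 2 (highest adjusted p 0.12), Ap5m1 without Treg replicate 3 or Tconv replicate 2 or 3 (0.068) and Ino80c without Treg replicate 3 or Tconv replicate 1 (0.099). In each of these the groups did not overlap.

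A further set, named after the values were seen, was read in every library of both groups. S100a6, a calcium-binding protein, was at 949, 1441 and 1176 CPM in Tregs and at 168, 539 and 107 CPM in Tconvs (log2 fold change 2.13 ± 0.45, SE; adjusted p 0.046). Glrx (glutaredoxin), which reduces protein disulphides with glutathione, was at 725, 603 and 355 CPM and at 193, 151 and 116 CPM (1.87 ± 0.38, SE; adjusted p 0.036). Samsn1, an adaptor of lymphocytes, was at 348, 403 and 232 CPM and at 46.1, 123 and 78.1 CPM (1.99 ± 0.41, SE; adjusted p 0.037). Siva1, a protein that binds the tail of CD27, was at 97.7, 140 and 174 CPM and at 15.9, 12.3 and 34.8 CPM (2.71 ± 0.58, SE; adjusted p 0.048). The groups did not overlap in any of the 4. Each call was lost without 4 or 5 of the 6 libraries: S100a6 was kept only without Tconv replicate 2, Siva1 only without Tconv replicate 3, Glrx only without Treg replicate 3, and Samsn1 only without Treg replicate 3 or Tconv replicate 2, with highest adjusted p of 0.18, 0.18, 0.12 and 0.17. With limma-voom the calls of S100a6, Glrx and Siva1 were lost (adjusted p 0.29, 0.081 and 0.076), and that of Samsn1 held (0.045). The edgeR call of Siva1 was also lost with median-of-ratios size factors (adjusted p 0.054) and with no filter on low counts (0.083). The long non-coding RNA Gm14005, whose RefSeq symbol is Morrbid, was at 145, 222 and 207 CPM in Tregs and at 0.117, 13.3 and 10.9 CPM in Tconvs (adjusted p 0.036; lost without Treg replicate 2 or 3 or Tconv replicate 2 or 3, highest 0.085).

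Of 85 ribosomal protein genes 82 were tested. Of these, 77 had a log2 fold change below 0. In 42 every Treg library was below every Tconv library, beside 4.16% of all genes tested. However, edgeR called 0 of the 82, 4 had an unadjusted p below 0.05, and DESeq2 called 2 higher and none lower. They took 16% to 16.8% of reads in Tregs and 19.8% to 24% in Tconvs. The median log2 fold change was -0.47 with TMM scaling, -0.53 with median-of-ratios size factors and -0.37 with library totals, and 74 to 79 of the 82 were below 0 under the 3 scalings. Mitochondrially encoded genes took 9.43% to 9.75% of reads in Tregs and 12.1% to 17.2% in Tconvs, and edgeR called 0 of 26 (2 had an unadjusted p below 0.05; DESeq2 called 0).

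The same comparison in the spleen, from 3 Treg and 3 Tconv libraries of the same kind of mice, was set beside the NDLN values. Of the 45 genes called in NDLN, 41 had the same direction in spleen (51.8% of all genes tested had a positive log2 fold change there), 31 had spleen libraries that did not overlap in that direction (7.12% of all genes had every spleen Treg library above every spleen Tconv library), and 6 were called there, out of 9 (0.0600%) called in spleen in all. The 6 were Foxp3, Lrrc32, Cep112, Ikzf2, Sdf4 and Tnfsf8. In others of the 45 the spleen libraries overlapped, among them Bnip3, Nol10, Rnf31, Ap5m1, Ino80c and Siva1. Their spleen ratios of pooled reads, Tregs over Tconvs, were 1.37, 2.25, 2.24, 1.08, 0.987 and 1.18. The fitted change was smaller in spleen for 40 of the 45, with a median size of 8.46 in NDLN and of 2.36 in spleen in the NDLN direction; the genes were chosen for their NDLN values. Of the 26 higher genes with 0 to 3 reads over the NDLN Tconvs, 3 had 0 to 3 reads over the spleen Tconvs.

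**Figure D5:**
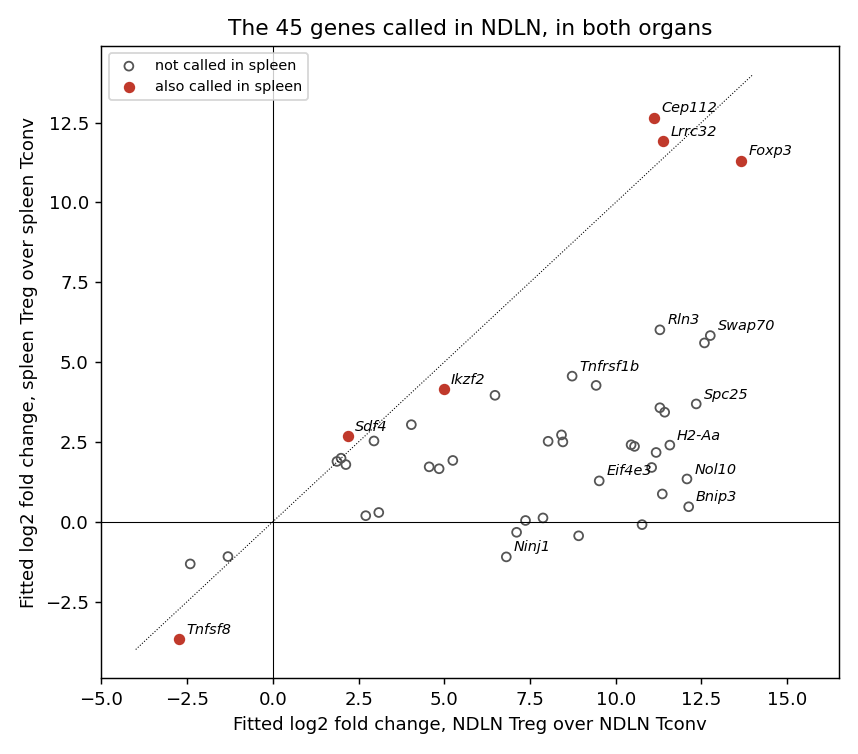
Fitted log2 fold change of the 45 genes called in NDLN, NDLN Tregs over NDLN Tconvs (horizontal) against spleen Tregs over spleen Tconvs (vertical). The dotted line marks equal change; 41 genes have the same sign in both, the 6 also called in spleen are red, and 40 genes lie nearer to 0 in spleen.

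The difference between NDLN and spleen was tested directly. edgeR called 0 genes (smallest adjusted p 0.18), with 1038 (6.92%) at an unadjusted p below 0.05, while DESeq2 called 1003. Given the wide spread between replicates, 0 calls does not show that the organs are alike. Among genes of at least 20 CPM in a group and leaving out predicted genes, the 4 with the smallest p were Eif4e3, Tmem97, Panx1 and H2-Aa, each with an adjusted p of 0.24. In spleen Tconvs H2-Aa was at 4.68, 68.4 and 77.4 CPM, and in spleen Tregs at 179, 368 and 245 CPM. Eif4e3 was at 5.76, 9.08 and 25.7 CPM in spleen Tconvs and at 50, 24.4 and 24.2 CPM in spleen Tregs. For these genes it was the Tconv level that was near 0 in NDLN and above 0 in spleen. Without NDLN Tconv replicate 3 the count of called differences was 22, without NDLN Tconv replicate 2 it was 4 and without NDLN Treg replicate 1 it was 1. Ikzf2 was at 829, 920 and 1584 CPM in spleen Tregs and at 36.5, 105 and 46.4 CPM in spleen Tconvs, and the difference of its log2 fold changes was 0.84 ± 0.63 (SE; adjusted p 1).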

How the data were processed

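RNA of sorted cells was made into libraries with the SMARTer Ultra Low Input kit, per the labels' protocols. The deposited values are raw read counts per gene, made by the authors with CASAVA 1.8.2, HISAT2 and HTSeq 0.6.0 on mm10, per the submitters' processing notes; which gene models were counted, whether strand was used and how multi-mapping reads were handled is not given in the sources read. Of the 49510 gene IDs counted, 49326 matched the GENCODE annotation of GRCm38, and 0 columns were left unused.

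Counts of all 21 libraries were fitted with edgeR 4.0.16 in R 4.3.3 (TMM scaling, quasi-likelihood F-test with robust dispersion, 1 coefficient a group), for 14996 genes kept by a filter on low counts (minimum count 10, minimum total 15); 34514 were not tested. P-values were adjusted by Benjamini-Hochberg over all genes tested, and a gene was called at an adjusted p below 0.05. Summed levels of a list are shares of library totals without TMM factors.

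The genes and 37 lists were chosen with earlier results of these data known. Named genes are 12 set lineage and naive-cell genes, every called lower gene, the 20 called higher genes of largest change whose libraries do not overlap and whose Treg mean reaches 20 CPM, and for each list up to 4 members of smallest adjusted p and up to 3 of highest level that did not pass; predicted, ribosomal and receptor segment genes are not named by this rule. Other called genes were named after their values were seen. Alternatives were DESeq2 1.42.0, limma-voom (limma 3.58.1), other scalings and filters, subsets of libraries, a replicate block and leaving out each library. Some genes that the rule names are not reported here.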

Additional observations from a re-analysis of the deposited data

How the results depend on the processing

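The count of 45 called NDLN genes (42 higher, 3 lower) moved to 339 with no filter on low counts, 1644 with DESeq2, 242 with limma-voom, 8 with the 12 NDLN and spleen libraries (5 of them among the 45), 0 with the 6 NDLN libraries alone and 0 with these and a replicate block; it was 46 with median-of-ratios size factors, 54 with library totals and 60 with a stricter filter. It was 18 (13 among the 45) without the 5 libraries of other groups that stand apart by low mitochondrial ribosomal RNA, a setting chosen after seeing the data. Leaving out 1 library gave 26 (without Treg replicate 2) to 87 (without Tconv replicate 3), with 16620 to 16719 genes kept by the repeated filter. DESeq2 called all 45 of these genes and limma-voom 31, and 12 kept their call without each of the 6 NDLN libraries. The labels do not say whether equal replicate numbers mark paired samples. Correlations of deviations from the group mean between equal numbers were -0.019, -0.017 and 0.037. Values near 0 cannot decide this, since the spread between libraries was large. A replicate block over all libraries gave 39, of which 33 were shared.

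The count of genes whose difference was called between NDLN and spleen (0) became 77 with no filter and 1003 with DESeq2, and 0 to 22 on leaving out 1 library. The count of called genes with the same direction in spleen (41) became 285 with no filter, 1079 with DESeq2, 208 with limma-voom, 8 with 12 libraries, 17 without the 5 libraries that stand apart, and 22 to 66 on leaving out 1 library. Nrp1, whose log2 fold change was 0.03, went to -0.02 with median-of-ratios size factors and with DESeq2, to -0.00 without the 5 libraries and ranged from -0.33 to 0.55 on leaving out 1 library. The cause of these changes was not tested. Scaling moved the median log2 fold change of all genes from 0.04 to 0.00 (median-of-ratios) and 0.14 (library totals); the share of genes above 0 moved with it. With 0 to 3 reads in a group, the size of a fold is limited by depth.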

Other observations

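Gm6637, a processed pseudogene on chromosome 6 that was called higher (adjusted p 0.048 by edgeR), was at 227, 165 and 90.8 CPM in NDLN Tregs and at 0, 0 and 0.0863 CPM in NDLN Tconvs; the call was lost without any one of the 6 libraries (highest adjusted p 0.24). It was named after its values were seen. By the rule of at least 5 CPM in every library of one group and at most 0.5 CPM in every library of the other, 54 genes were present in spleen Tregs and 13 in spleen Tconvs; 9 of the 105 in NDLN Tregs and 1 of the 11 in NDLN Tconvs met the same rule in spleen.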
